A study of Homo sapiens with 4 samples.

Results

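The ID family and the BMP pathway around it were examined through 9 genes, the ID genes ID1, ID2, ID3 and ID4, the ligands BMP2 and BMP4, the secreted BMP modulator BMPER and the inhibitory SMADs SMAD6 and SMAD7. Every probe set annotated to exactly 1 of these symbols was taken, which gave 23 of the 49293 gene probe sets, and all 9 genes were found among the 18132 named by a single symbol. RNA came from A549, an established line of human lung adenocarcinoma grown in RPMI-1640 with serum, 48 h after 1 of 4 treatments. The cells were left untreated, received dihydroberberine at 25 μmol/L, received sunitinib at 2 μmol/L, or received the 2 agents together at the same doses. The first agent is berberine, a plant alkaloid, in reduced form, and sunitinib inhibits receptor tyrosine kinases such as those for VEGF and PDGF. All 4 arrays carry RNA of the same line, no solvent for the drugs is named, and each treatment has a single array, so no difference here has a replicate or a test, and the small number of arrays limits the precision.

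BMPs are secreted ligands that bind paired serine/threonine kinase receptors, which phosphorylate SMAD1, SMAD5 and SMAD9, and these enter the nucleus with SMAD4. ID1, ID2 and ID3 are among the best known targets of that signal. The ID proteins carry a helix-loop-helix but no DNA-binding region, so they hold E proteins such as TCF3 off DNA. SMAD6 and SMAD7 are themselves induced by the pathway and block it, and BMPER binds BMPs outside the cell. In epithelial tumours ID1 and ID3 are studied for their part in growth and self-renewal.

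The stretches upstream of the start sites of 5 of these genes are shown because the results turn on their transcripts and because they hold, or lack, the short motifs tied to SMAD binding. They are from RefSeq on GRCh38.p14, run 5′ to 3′ on the gene's strand, and end at the base before the annotated start site. Capitals mark GGCGCC, a core of BMP-responsive elements, GTCT, the short site bound by SMADs, and CCAAT, the box bound by NF-Y, each on either strand (GTCT then reads AGAC and CCAAT reads ATTGG).
ID1, chr20:31605039-31605288, plus strand: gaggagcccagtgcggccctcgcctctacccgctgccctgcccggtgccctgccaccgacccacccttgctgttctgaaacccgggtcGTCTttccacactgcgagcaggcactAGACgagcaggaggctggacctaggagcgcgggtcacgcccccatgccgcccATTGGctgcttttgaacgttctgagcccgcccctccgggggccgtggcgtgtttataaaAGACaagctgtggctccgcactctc
ID2, chr2:8681806-8682055, plus strand: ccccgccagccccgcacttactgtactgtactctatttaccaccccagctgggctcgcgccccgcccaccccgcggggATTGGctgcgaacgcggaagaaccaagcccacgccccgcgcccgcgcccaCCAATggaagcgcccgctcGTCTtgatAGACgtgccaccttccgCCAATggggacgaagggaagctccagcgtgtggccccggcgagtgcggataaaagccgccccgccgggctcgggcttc
ID3, chr1:23559502-23559751, minus strand: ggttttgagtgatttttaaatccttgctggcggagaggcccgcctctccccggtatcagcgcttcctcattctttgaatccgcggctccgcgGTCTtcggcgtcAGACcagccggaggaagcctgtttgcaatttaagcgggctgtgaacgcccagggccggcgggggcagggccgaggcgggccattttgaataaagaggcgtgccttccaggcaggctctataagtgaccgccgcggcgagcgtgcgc
SMAD6, chr15:66701986-66702235, plus strand: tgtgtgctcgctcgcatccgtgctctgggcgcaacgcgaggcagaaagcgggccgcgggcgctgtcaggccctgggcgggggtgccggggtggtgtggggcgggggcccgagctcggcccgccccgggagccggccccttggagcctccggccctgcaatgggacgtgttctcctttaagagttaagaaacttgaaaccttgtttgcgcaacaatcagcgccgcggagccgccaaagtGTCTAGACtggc
BMPER, chr7:33905289-33905538, plus strand: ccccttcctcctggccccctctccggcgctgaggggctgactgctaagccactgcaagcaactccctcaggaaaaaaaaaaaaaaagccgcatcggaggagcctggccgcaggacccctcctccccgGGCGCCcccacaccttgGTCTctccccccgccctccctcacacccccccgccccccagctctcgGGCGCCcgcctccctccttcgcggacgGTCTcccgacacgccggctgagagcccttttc
A window was given for 8 of the 9 genes, and BMPER has 2 windows, of which the one with more marked motifs is printed. The SMAD6 window holds the palindrome GTCTAGAC, GTCT followed by its own reverse complement, from 12 to 5 bases before the start site. That palindrome is in 64 of 35116 windows of 250 bases upstream of annotated starts, or 0.182%. The ID1 window has 3 GTCT matches and 1 CCAAT match, the ID2 window 2 and 3, and the ID3 window 2 and 0. Single GTCT matches are common, in 77.5% of all windows, and CCAAT was found in 32% of them. GGCGCC, found in 16.4% of windows, was in neither the ID1, ID2, ID3 nor SMAD6 window and 2 times in the printed BMPER window. These are letter matches in 250 bases and describe the sequence only.

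Signal is given as the deposited log2 value of a probe set, so a difference of 1 is 2-fold. The probe set with the highest mean over the 4 arrays stands for its gene, and levels of different genes are not compared, since probe sets differ in how well they bind. A floor was set at the median of all gene probe sets, 6.75 on the log2 scale, which is no limit of detection. Of the 9 genes, 5 had an array above it (ID1, ID2, ID3, BMPER and SMAD6), through 13 of the 23 probe sets, 12 of them above it on all 4 arrays. The other 10 probe sets, all those of ID4, BMP2, BMP4 and SMAD7, lay between 3.94 and 6.29 on every array. The genes were proposed with earlier results of these arrays in view, and ID2 and BMPER had been picked on their log2 difference between the sunitinib and untreated arrays, so all values are a description.

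**Figure D1:**
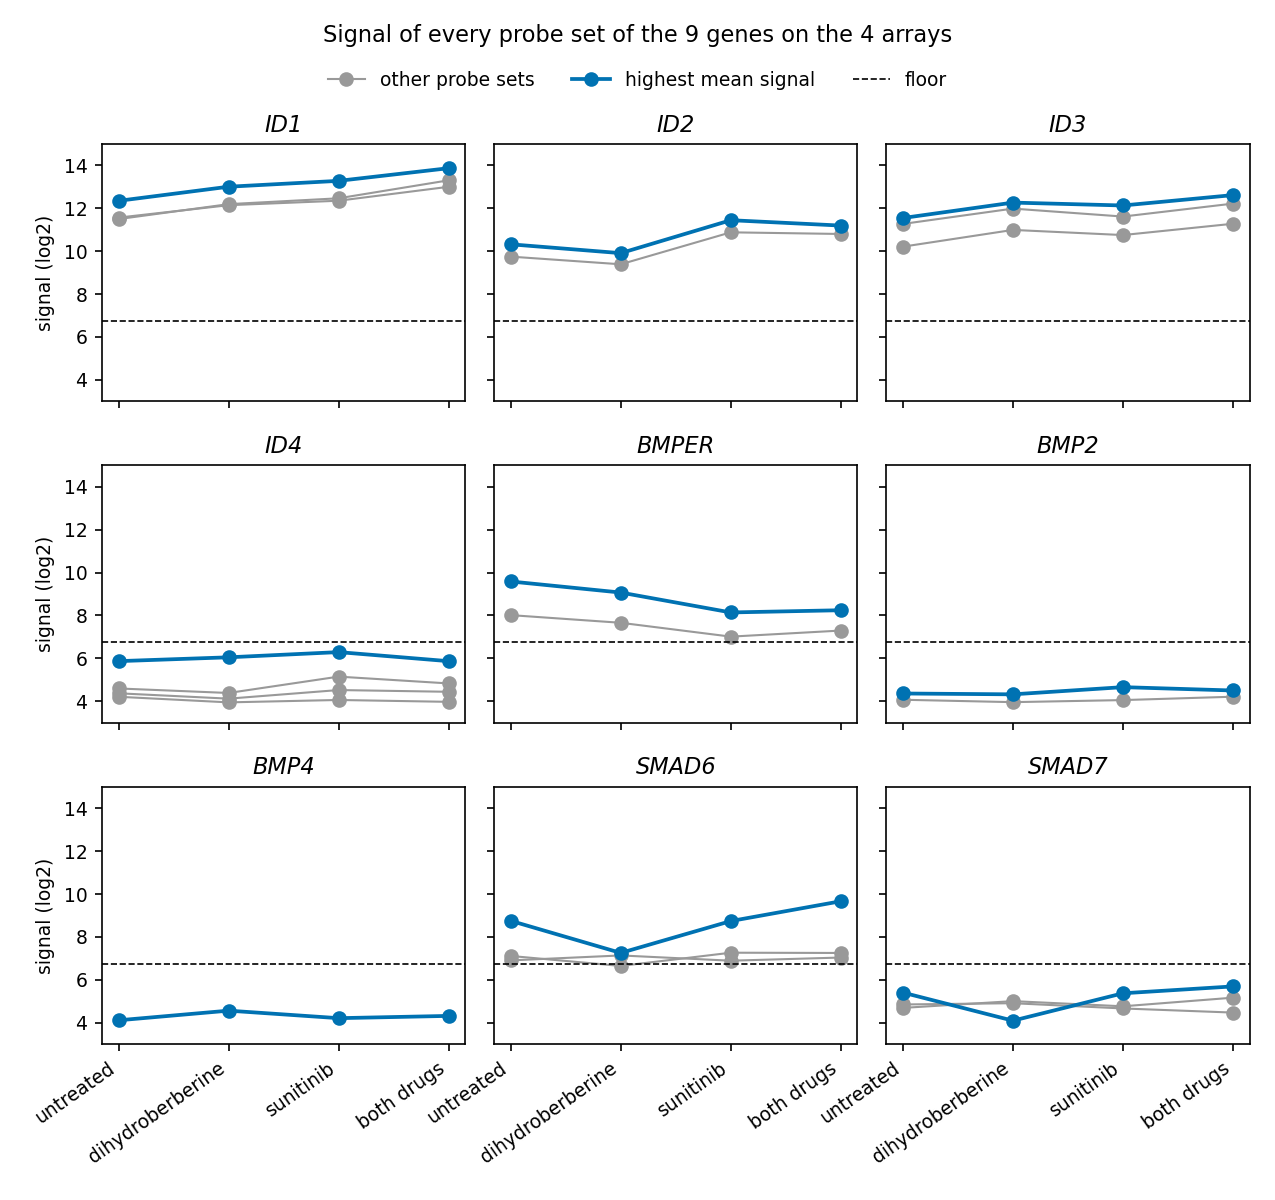
The log2 signal of each probe set of the 9 genes (vertical axis) is plotted on the 4 arrays (horizontal axis), with the probe set of highest mean signal in blue, the other probe sets in grey and the floor dashed. Within each of ID1, ID2, ID3 and BMPER the probe sets put the arrays in the same order, with unequal differences in the BMPER pair. Only 1 of the 3 SMAD6 probe sets moves strongly, and ID4, BMP2, BMP4 and SMAD7 stay under the floor.

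On all arrays, medians of the gene probe sets were between 6.73 and 6.76 and pairs of arrays correlated at 0.986 to 0.994. Of 10 markers of epithelial cells and of A549, 9 were above the floor on every array, while EPCAM was not. CPS1, a urea cycle enzyme among them, read 13.18 untreated, 12.45 with dihydroberberine, 12.58 with sunitinib and 11.40 with both drugs, 3.43-fold lower with both. Of 4 leukocyte markers 2 passed it untreated (CD14 and CD68) and 1 elsewhere (CD68), PTPRC staying at 3.81 to 3.92. CD14 read 8.82 untreated and 6.75, 6.27 and 5.76 with dihydroberberine, sunitinib and both, all under the floor and at least 4.19-fold lower. Of 4 endothelial markers only VWF passed, and of 4 fibroblast markers only PDGFRB, on 3 arrays. From array to array the log2 of the summed signal ran from 17.1 to 17.2 for the epithelial list, 8.04 to 9.67 for leukocyte, 8.21 to 8.35 for endothelial and 7.89 to 8.43 for fibroblast markers, sums of different probe sets that are not compared between lists. The dihydroberberine array stood apart in its Alu and 18S rRNA controls. Relative to untreated its Alu probe set was at -0.41 and its 18S rRNA probe sets at a median of -0.60. The 18S median was -0.21 with sunitinib and -0.23 with both drugs. Background probes rich in G and C read 7.15 on the dihydroberberine array, 6.99 with sunitinib, 6.95 with both drugs and 6.70 untreated. In these the untreated array, which enters every difference from untreated, lay farthest from its neighbour. The part of these marker and control differences in the results was not tested.

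ID1, the founding ID gene, was higher with each drug and highest with both. Its log2 signal (probe set 11716196_x_at) was 12.35 in untreated cells, 13.01 with dihydroberberine, 13.28 with sunitinib and 13.87 with both. All 3 probe sets put the arrays in that order. ID1 was 1.58-fold higher with dihydroberberine, 1.91-fold higher with sunitinib and 2.87-fold higher with both drugs than in untreated cells. With both drugs the 3 probe sets gave log2 differences of 1.44, 1.52 and 1.81, and this gene was number 29 from the top of the 10958 genes above the floor. The step from dihydroberberine to sunitinib was the smallest, 0.25 ± 0.04 (SD between 3 probe sets), and that from sunitinib to both drugs was 0.69 ± 0.13. This spread is between probe sets of the same RNA and says nothing of the error between cultures.

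ID3 was also highest with both drugs, but of the single drugs dihydroberberine went with the larger difference. It read (probe set 11757404_x_at) 11.55 untreated, 12.27 with dihydroberberine, 12.13 with sunitinib and 12.62 with both, and the 3 probe sets again agreed on the order. The difference was 1.65-fold with dihydroberberine, 1.5-fold with sunitinib and 2.1-fold with both drugs. Over the probe sets it ran from 0.72 to 0.78 log2 units with dihydroberberine and from 0.34 to 0.59 with sunitinib. The dihydroberberine and sunitinib arrays lay 0.25 ± 0.12 apart (SD between 3 probe sets), a gap with a wide spread for its size. With both drugs 1 of the 3 probe sets, at 0.95, was short of 2-fold.

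ID2 had another pattern, higher with sunitinib and slightly lower with dihydroberberine. Its signal (probe set 11715994_x_at) was 10.32 in untreated cells, 9.91 with dihydroberberine, 11.44 with sunitinib and 11.19 with both. Both arrays with sunitinib lay above both arrays without it, in each of the 2 probe sets. The sunitinib difference from untreated was 1.12 and 1.13 in the 2 probe sets, number 15 from the top of all genes. That rank is a description only, since ID2 had been picked on this same difference. Given on top of dihydroberberine, sunitinib went with log2 differences of 1.29 and 1.41. Dihydroberberine went with -0.41 and -0.36 against untreated and with -0.25 and -0.08 against sunitinib alone, so the sign was the same in both settings while the second pair was small. The array with both drugs and the sunitinib array were 0.16 ± 0.12 apart (SD between 2 probe sets), about the spread between the probe sets. The probe sets printed for ID1, ID2 and ID3 have names in _x_at, the mark of probes that may bind other transcripts. The differences from untreated kept their signs in the 3 probe sets of ID1 and ID3 whose names end in _a_at. For ID2 they did so in the other probe set, which ends in _s_at, and ID2 has none ending in _a_at.

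ID4, the family member known mainly from neural and mammary cells, had no probe set above the floor. Its 4 probe sets lay between 3.94 and 6.29 and disagreed on the order of the arrays. Differences of ID4 are therefore not interpreted.

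BMPER, which can both present and sequester BMPs at the cell surface, was the lowest with sunitinib. It read (probe set 11729824_at) 9.58 in untreated cells, 9.07 with dihydroberberine, 8.14 with sunitinib and 8.24 with both drugs. The second probe set read 8.01, 7.66, 7.01 and 7.29 on the same arrays, in the same order. BMPER was 2.72-fold lower with sunitinib by the first probe set, with log2 differences of -1.45 and -1.0 in the pair. It was number 11 from the bottom of all genes, a rank that is a description only, since BMPER had been picked on this difference. With both drugs BMPER was 2.53-fold lower by the first probe set, while the second gave -0.72. Dihydroberberine alone went with -0.52 and -0.36, and added to sunitinib with 0.10 and 0.28. The array with both drugs was thus no lower than that with sunitinib, and the gap was 0.19 ± 0.13 (SD between 2 probe sets).

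The ligands BMP2 and BMP4 stayed under the floor on all arrays. The probe sets of BMP2 read between 3.95 and 4.65, and the single BMP4 probe set between 4.11 and 4.56. The largest difference from untreated among them was 0.45 for BMP4 with dihydroberberine, between levels under the floor. No fold is given for either.

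SMAD6 showed the largest difference of the 9 genes, in 1 probe set only. That probe set (11730338_a_at) read 8.75 untreated, 7.25 with dihydroberberine, 8.74 with sunitinib and 9.66 with both drugs. It was 2.83-fold lower with dihydroberberine, and with both drugs it was 5.32-fold higher than with dihydroberberine and 1.88-fold higher than untreated. The second probe set read 6.90, 7.13, 6.89 and 7.03 on these arrays, and the third 7.11, 6.64, 7.26 and 7.25. Their differences with dihydroberberine were 0.23 and -0.47 against -1.5 for the first, so the 3 did not share a sign. With both drugs against untreated all 3 were positive, at 0.13, 0.91 and 0.14. The mean over the 3 with dihydroberberine was -0.58 ± 0.87 (SD between 3 probe sets), a spread above the mean. The value of the first rests on the array whose Alu and 18S controls differed from untreated by -0.41 and -0.60, and the part of that difference was not tested.

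SMAD7, the broader inhibitor that also blocks TGF-beta receptors, stayed under the floor. One of its 3 probe sets read 5.40 untreated, 4.09 with dihydroberberine, 5.37 with sunitinib and 5.69 with both drugs, the order of arrays seen in the first SMAD6 probe set. The other 2 probe sets differed by 0.06 and 0.32 with dihydroberberine. Since all these levels were under the floor, no fold is given.

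Counts past 2-fold are set beside those over all 10958 genes above the floor. With dihydroberberine against untreated, 0 of the 5 genes were at least 2-fold higher and 1, SMAD6, was lower, where 1.05% and 3.52% of all genes were. With sunitinib against untreated, ID2 was higher and BMPER lower, where 0.21% and 0.584% of all genes were. With both drugs against untreated, ID1 and ID3 were higher and BMPER lower, where 1.16% and 1.5% were. With both drugs against dihydroberberine, ID2 and SMAD6 were higher and 0 were lower, where 2.78% and 0.438% were. With both drugs against sunitinib, 0 were past 2-fold in either direction, where 0.721% and 0.119% were. The genes counted were chosen with these arrays in view, so the shares of all genes are the background and no more is read from them. The median log2 difference of the 5 genes from untreated was -0.41 with dihydroberberine, 0.59 with sunitinib and 0.91 with both drugs, beside -0.03, -0.04 and -0.02 for all genes. These medians are the values of ID2, ID3 and the first SMAD6 probe set in turn, and the other SMAD6 probe sets gave 0.13 and 0.14 with both drugs. No shift of the group is read from them.

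**Figure D2:**
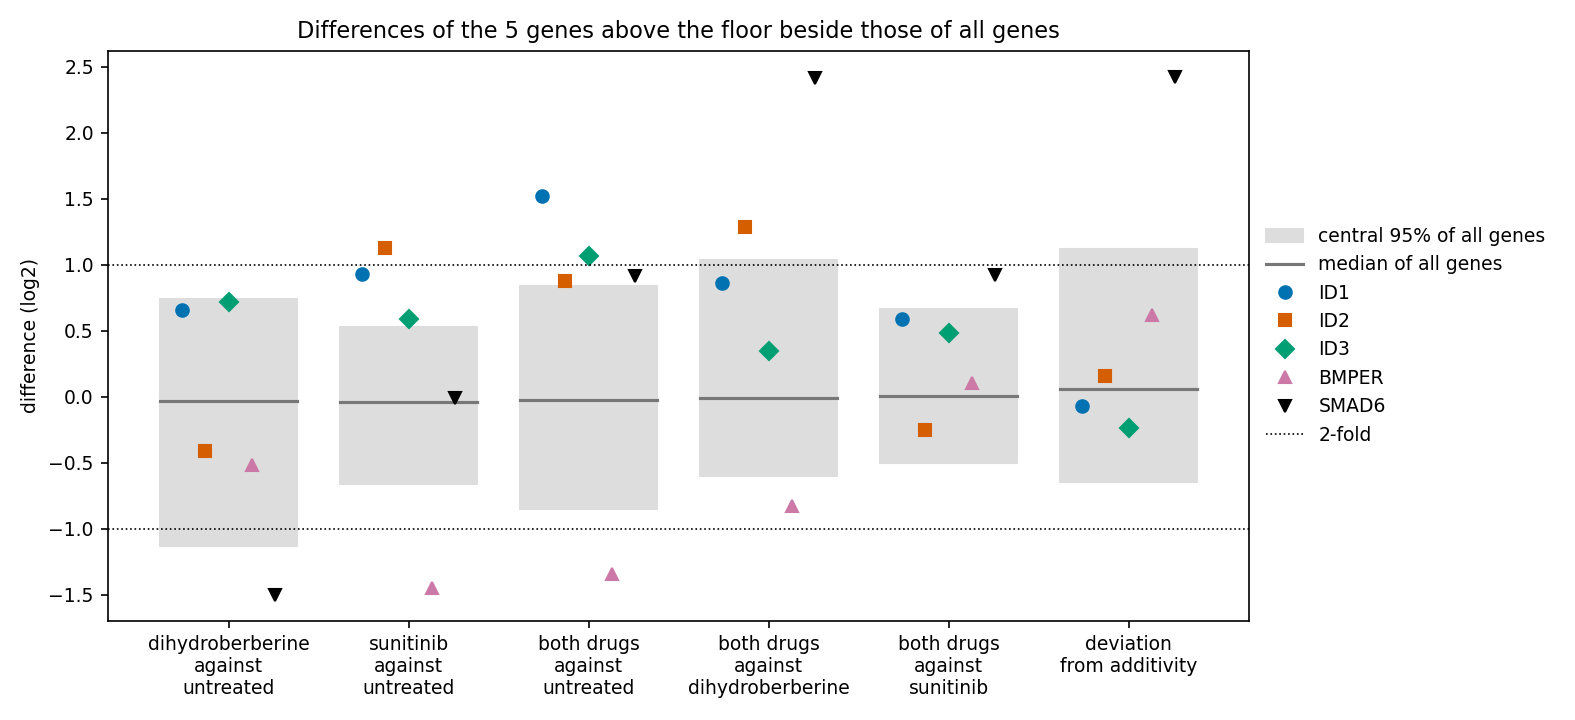
Log2 differences of ID1, ID2, ID3, BMPER and SMAD6 (symbols, vertical axis) are plotted for each comparison (horizontal axis), over grey boxes for the central 95% of the 10958 genes, with 2-fold dotted. With both drugs against untreated ID1 stands at 1.52 and BMPER at -1.34, and SMAD6 stands at 2.41 with both drugs against dihydroberberine.

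Whether both drugs together gave the sum of their single differences was read from the 4 arrays as both drugs minus each drug alone plus untreated, so that 0 is additive on the log2 scale. ID1 deviated by -0.07, 0.07 and 0.14 in its 3 probe sets, with 2 positive and 1 negative. ID3 deviated by -0.11, -0.25 and -0.24, slightly below the sum, and ID2 by 0.16 and 0.28, slightly above it. BMPER deviated by 0.62 and 0.64, so that the drop with both drugs was smaller than the 2 single drops added. The first SMAD6 probe set deviated by 2.42, and the other SMAD6 probe sets by -0.08 and 0.45. One of the 5 genes, SMAD6, deviated by at least 2-fold upward and 0 downward, where 3.39% and 0.329% of all genes did. The median deviation of all genes was 0.06.

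**Figure D3:**
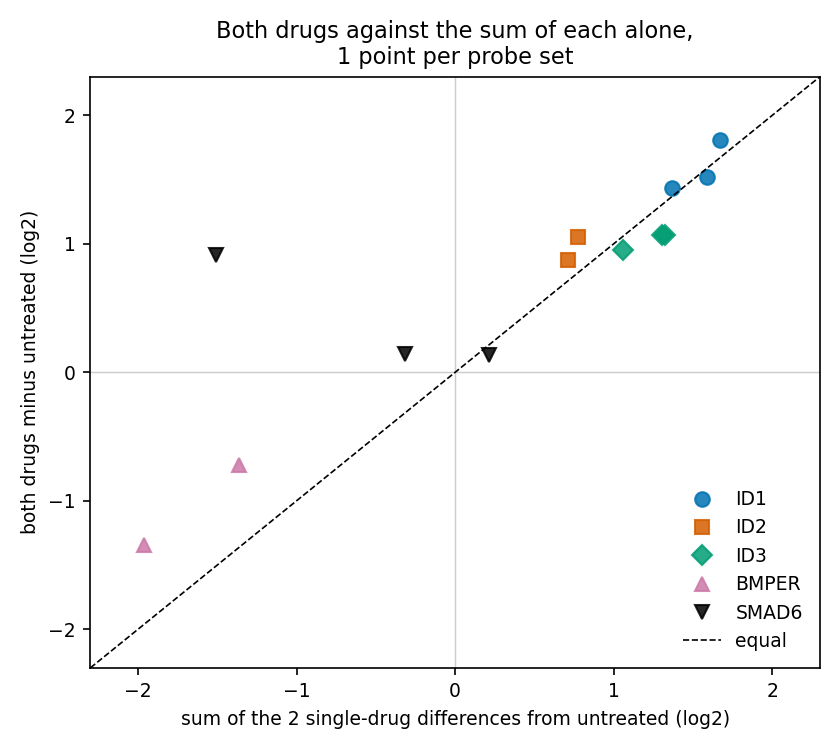
For each probe set of the 5 genes above the floor, the log2 difference of both drugs from untreated (vertical axis) is plotted against the sum of the 2 single-drug differences (horizontal axis), with a dashed line where they are equal. ID1 lies near the line, the BMPER pair above it, and 1 SMAD6 probe set far above it at -1.51 and 0.91.

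Other genes of the pathway were taken from 8 lists of 78 genes, of which 51 had an array above the floor. With dihydroberberine 0 of the 51 were at least 2-fold higher and 3 lower, where 1.05% and 3.52% of all genes were. With sunitinib 0 were past 2-fold in either direction, and with both drugs against untreated 0 were as well. The medians of the 51 were -0.07, -0.02 and 0.14. With both drugs against dihydroberberine 5 were at least 2-fold higher and 0 lower, and these were BMPR2, RGMB, SKI, SNAI2 and GATA2. Of all genes 2.78% were higher and 0.438% lower in that comparison. With sunitinib 0.21% of all genes were higher and 0.584% lower, and with both drugs against untreated 1.16% and 1.5%. The counts above 0 both use the dihydroberberine array, whose controls stood apart, and the part of that was not tested.

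Of 11 other BMP and GDF ligands 4 passed the floor, BMP5, BMP6, BMP8A and BMP8B. BMP5 read 8.09 untreated, 7.89 with dihydroberberine, 7.31 with sunitinib and 7.42 with both, with both sunitinib arrays lower in this probe set. Against untreated it was 1.71-fold lower with sunitinib, and with both drugs 1.59-fold lower. BMP8B was 1.79-fold lower with dihydroberberine, at 7.40 against 8.25. In these ligands 0 were past 2-fold from untreated.

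Among receptors and co-receptors 7 passed the floor. BMPR2, the type II receptor for BMPs, read 7.63 untreated, 7.35 with dihydroberberine, 8.26 with sunitinib and 8.61 with both drugs. Both arrays with sunitinib were higher than both without it. It was 1.55-fold higher with sunitinib and 1.98-fold higher with both drugs, and the second probe set above the floor gave 0.49 and 0.62 against 0.63 and 0.99. RGMB, a BMP co-receptor, was 1.99-fold lower with dihydroberberine, at 8.0 against 8.99, and its second probe set gave -0.22.

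The SMADs that carry the signal differed little. Of SMAD1, SMAD4 and SMAD5 the largest differences from untreated were 0.37 for SMAD1 with both drugs, 0.40 for SMAD4 with sunitinib and -0.41 for SMAD5 with dihydroberberine. The probe sets of SMAD4 ranged from -0.36 to 0.40 and those of SMAD5 from -0.78 to 0.25 in those comparisons, so neither had a common sign. SMAD9 stayed under the floor.

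Of 8 extracellular inhibitors above the floor 0 passed 2-fold from untreated in any of the 3 comparisons. FSTL3, a follistatin-like binder of activins, was 1.55-fold higher with dihydroberberine and 1.22-fold higher with both drugs, where its probe sets did not share a sign in the second. DAND5 was 1.44-fold higher with sunitinib. NOG and GREM1, well known BMP antagonists, stayed under the floor.

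Inside the cell, SKI, a co-repressor that binds SMADs, was 2.34-fold lower with dihydroberberine. It read 9.66 untreated, 8.44 with dihydroberberine, 9.75 with sunitinib and 9.70 with both, so the dihydroberberine array alone was low. Its 3 probe sets gave -1.5 to -0.82 with that drug. USP15, a deubiquitinase acting on SMADs and TGF-beta receptors, was 1.51-fold higher with sunitinib and 1.69-fold higher with both drugs, with probe sets of both signs in the first.

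Among 9 BMP targets above the floor, other than the 9 genes, the median was -0.39 with dihydroberberine, 0.15 with sunitinib and 0.21 with both drugs. MSX2, a homeobox gene induced by BMPs, read 10.63, 9.30, 10.96 and 10.19 in untreated, dihydroberberine, sunitinib and combined treatment, 2.5-fold lower with dihydroberberine, while its second probe set gave -0.55. GATA2, a zinc finger factor, read 8.5, 7.22, 8.65 and 8.80, 2.44-fold lower with dihydroberberine, and both probe sets were past 2-fold. The GATA2, MSX2, SKI, RGMB, BMP8B and first SMAD6 probe sets, among others, were lowest on the dihydroberberine array, the one whose controls stood apart. Other probe sets, such as those of BMP6, FSTL1, FSTL3, JUNB and HES1, were highest on that array. Of the 51 list genes above the floor, 28 were lower and 23 higher with dihydroberberine than untreated. The part of the controls in either direction was not tested. HAMP, the hormone hepcidin, was 1.45-fold higher with sunitinib. JUNB, an AP-1 subunit, was 1.73-fold higher with dihydroberberine, 1.04-fold higher with sunitinib and 1.58-fold higher with both drugs. HAMP and JUNB were each read by a single probe set above the floor, and the names of these and of the brighter MSX2 probe set also end in _x_at.

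The E proteins that ID proteins bind were all above the floor on at least 1 array. TCF3 was 1.63-fold lower than untreated with dihydroberberine and 1.61-fold lower with sunitinib, at 9.29 and 9.31 against 9.99. Its 4 probe sets ranged from -1.74 to 0.09 with dihydroberberine and from -0.69 to -0.06 with sunitinib. TCF4 was at least 1.34-fold lower with both drugs, where its signal was under the floor. TCF12 was higher with both drugs than untreated by 0.43.

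In the TGF-beta branch 8 genes were above the floor, and of these 0 were past 2-fold from untreated. SMAD3, the receptor-regulated SMAD of that branch, read 10.82 untreated, 10.32 with dihydroberberine, 9.83 with sunitinib and 10.19 with both drugs. It was 1.98-fold lower with sunitinib, and its 5 probe sets gave -0.99 to -0.55. TGFBR3, betaglycan, was 1.6-fold higher with dihydroberberine and 1.95-fold higher with both drugs. The median of the branch with sunitinib was -0.34, beside -0.04 for all genes.

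**Figure D4:**
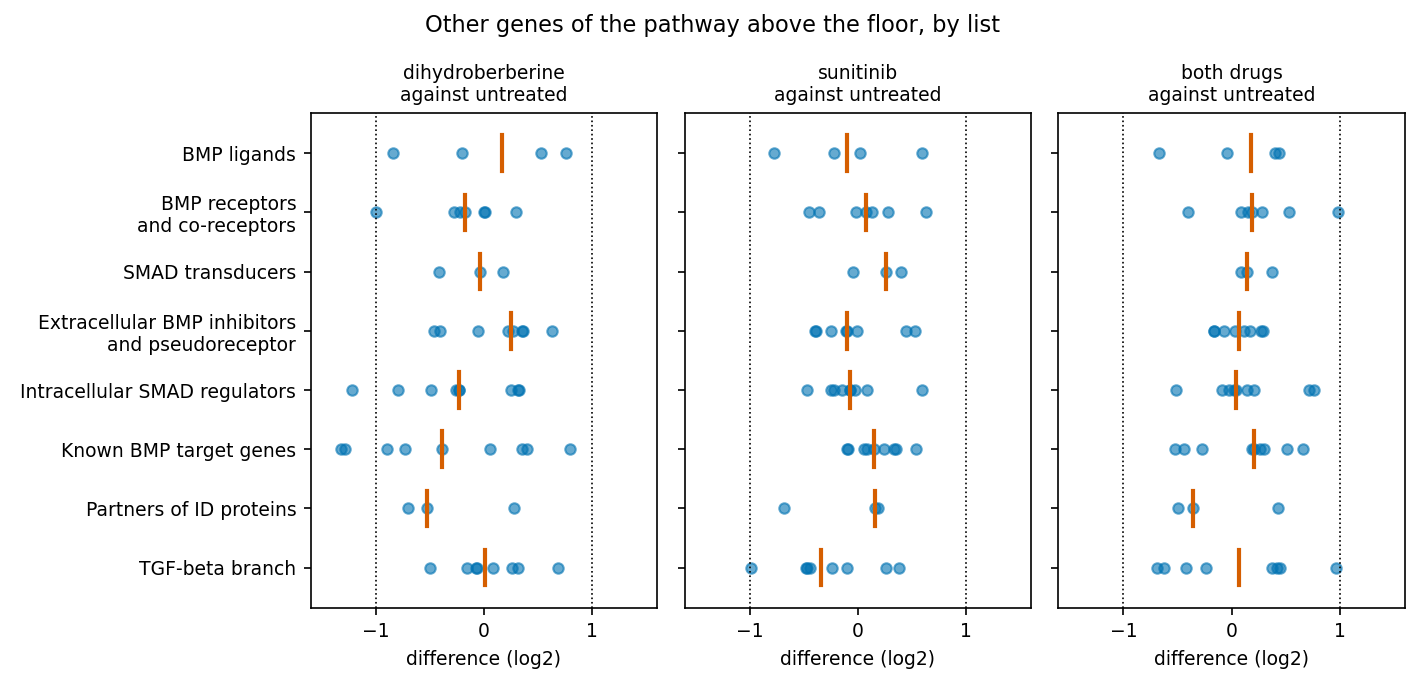
Log2 differences from untreated (horizontal axis) are plotted for the pathway genes above the floor, 1 point per gene and 1 row per list, with list medians as orange bars and 2-fold dotted. Points past 2-fold are 3 genes with dihydroberberine, all lower, where 3.52% of all genes were, and 0 with sunitinib or with both drugs.

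The genes nearest to ID1, ID2, ID3 and BMPER in their 3 log2 differences from untreated were found by Euclidean distance among 9831 genes above the floor on all 4 arrays. For ID1 they were ASAH1, NTSR1 and UNC5B at distances of 0.13, 0.35 and 0.36 log2 units, with ID3 number 13 and ID2 number 630. For ID3 they were USP53, COBLL1 and BRWD1 at 0.08, 0.10 and 0.11, with ID1 number 246 and ID2 number 2965. For ID2 they were TTC14, ATF5 and the receptor BMPR2 at 0.44, 0.49 and 0.52, farther away than for ID3. For BMPER they were SUCNR1, IGFBP3 and P4HA2 at 0.34, 0.38 and 0.40. SUCNR1 was 3.02-fold and IGFBP3 2.53-fold lower with sunitinib. Each such distance rests on 4 arrays, all 3 differences share the untreated one, and a small distance is common where differences are small.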

How the data were processed

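The deposited values are log2 probe set signals of 4 arrays, 1 per treatment, made with Affymetrix Expression Console per the submitters' processing notes. For its version, the summarization and any scaling between arrays, nothing is stated in the sources used here. The log2 scale was read from the values (3.01 to 15.4). The labelling kit per the labels' protocols, the probe set names and the controls are those of an Affymetrix array, although the series text names an Agilent one.

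Control probe sets (102) were set aside. Of the 49293 others the platform annotation gave 1 symbol to 44988, several to 1832 and none to 2473. Python 3.11.15 and pandas 2.3.3 took the brightest probe set per gene, kept genes with 1 array at or above the median of the gene probe sets, and counted differences of 2-fold. A fold with an array under that floor uses the floor. With 1 array per group no test was run. Alternatives were the mean of probe sets, a floor at the 75th percentile or none, quantile normalization, median centring, a 1.5-fold size and low values raised to the floor. The code was tested on simulated data.

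The genes and lists were chosen with earlier results of these data known. Named besides the 9 genes were, per list and comparison from untreated, up to 4 genes past 2-fold or else the largest difference, and the 3 nearest patterns. BMP6, BMP8A, NOG, GREM1, SMAD9, SNAI2, TCF12 and single markers were named after their values were seen. Some genes of the lists are not reported here.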

Additional observations from a re-analysis of the deposited data

Results flagged for a closer look

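SMAD6 was picked out because the difference made by 1 drug had opposite signs without and with the other drug. In its probe set of highest signal dihydroberberine went with -1.5 against untreated and with 0.93 against sunitinib, and sunitinib with -0.011 against untreated and with 2.41 against dihydroberberine. The sunitinib value against untreated is close to 0, so its sign carries little, and the other 2 probe sets of the gene did not show this pattern. BMPER was picked out in the same way, with -0.52 for dihydroberberine against untreated and 0.10 against sunitinib, and both probe sets had these signs. These values use the untreated and sunitinib arrays, on whose difference BMPER had been picked. With 1 array per condition neither difference between settings was tested.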

How the results depend on the processing

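No paired analysis was possible because each group has 1 array, and no replicate could be left out. Averaging the probe sets of a gene, the count of the 5 genes went from 1 to 0 lower with dihydroberberine, from 2 to 1 higher (ID2) with both drugs against dihydroberberine, and from 1 to 0 for the upward deviation from additivity, in each case through SMAD6. With no floor SMAD7 joined SMAD6, giving 2 lower with dihydroberberine and 2 upward deviations. After quantile normalization ID1 joined ID2, giving 2 higher with sunitinib. At 1.5-fold, a smaller size, the higher counts were 2 with dihydroberberine (ID1 and ID3), 3 with sunitinib (the ID genes), 4 with both drugs against untreated and 2 against sunitinib, the lower count against dihydroberberine was 1 (BMPER), and 2 deviated upward. Without the dihydroberberine array, an alternative added once the data were seen, the same drug differences gave 0 lower (both drugs against sunitinib) and, for sunitinib, 1 higher and 1 lower. The other 73 recomputed counts stayed within 1.5 times. Of 180 recomputed differences of the 5 genes 18 moved by more than the SD between probe sets, and 0 of those past 2-fold changed sign. The settings that changed only the floor could not move these differences, since the probe sets used were above it on all arrays. All 18 therefore came from averaging probe sets, quantile normalization or median centring, and the total of 180 overstates how much was tried.

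Over all genes, the higher and lower counts were 115 and 386 with dihydroberberine, 23 and 64 with sunitinib, 127 and 164 with both drugs against untreated, 305 and 48 against dihydroberberine, 79 and 13 against sunitinib, and 372 and 36 for the deviation. Some moved by more than 1.5 times. Averaging probe sets, 162 were lower with dihydroberberine, 13 higher and 38 lower with sunitinib, 63 higher with both drugs against untreated, 98 higher against dihydroberberine, 49 higher and 8 lower against sunitinib, and 128 deviated upward. At the 75th percentile floor these were 12 higher and 37 lower with sunitinib, 69 higher with both drugs against untreated, 194 higher and 30 lower against dihydroberberine, 52 higher and 7 lower against sunitinib, and 237 upward and 22 downward deviations, in fewer genes tested. With values raised to the floor 14 were higher with sunitinib, and with no floor 70 deviated downward. At 1.5-fold 533 were higher and 1377 lower with dihydroberberine, 176 and 414 with sunitinib, 751 and 793 with both drugs against untreated, 1131 and 301 against dihydroberberine, 392 and 161 against sunitinib, and 1332 and 409 for the deviation.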
